A study of Mus musculus with 31 samples.

Results

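The genes described here are 10 genes of the p53 response and of cellular senescence, Trp53, Mdm2, Cdkn1a, Ccng1, Bax, Bbc3, Phlda3, Gdf15, Cdkn2a and Cdkn2b, followed across mouse kidneys by RNA-seq. Members were taken by gene symbol, each symbol matched 1 row of the count data, and they are 10 of 23509 genes. All 10 passed the filter on low counts, which kept 15185 genes. The kidneys came from 31 mice in 3 groups. Wild type means untreated male CD1 mice (n = 5), of the same age at harvest as the treated mice. Pcy/CD1 mice are a model in which polycystic kidneys develop slowly. From 5 weeks of age they received subcutaneous PBS (n = 12) or RGLS4326 at 25 mg kg-1 (n = 14) for 25 weeks, to 30 weeks of age. RGLS4326 is a short modified oligonucleotide that binds and blocks the microRNA miR-17. It was given monthly, while the labels give weekly dosing for PBS in 1 field and monthly in another. No wild-type mouse received an injection, so the Pcy/CD1 background and the injections cannot be told apart in comparisons with wild type. The labels name separate mice, and the spread between them is the error used throughout.

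The transcription factor p53, encoded by Trp53, is held at a low level by Mdm2, a ubiquitin ligase whose own gene p53 switches on. When DNA damage, oxidative stress or oncogenic signals stabilise the p53 protein, it raises genes that stop the cell cycle, such as Cdkn1a (p21), and genes that trigger apoptosis, such as Bax and Bbc3 (PUMA). Cdkn2a and Cdkn2b encode inhibitors of the cyclin D kinases that keep the retinoblastoma protein active, and both are widely used as marks of senescent cells. In injured kidney, tubular cells that raise Cdkn1a and Cdkn2a are known to leave the cell cycle and to secrete inflammatory and profibrotic factors. p53 is regulated mostly as a protein, which mRNA counts do not measure. Levels below are CPM, a gene's counts divided by its library's total in the usual way after edgeR's TMM scaling, and are compared between mice and not between genes, since they are not corrected for gene length.

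Libraries held 14892524 to 27459962 counts assigned to genes. Numbers in the names of the deposited libraries were read as 3 index series of 10, 11 and 10 mice, each holding all 3 groups. Whether these series are library or sequencing batches is not known. RGLS4326-treated mouse 9 stood apart from its group. Its log2 profile correlated with the wild-type mean at r = 0.993, while the other 13 RGLS4326-treated mice reached 0.942 to 0.982. It read 2.76 CPM for Lcn2, a secreted protein of injured tubules, against 126 to 607 CPM in the other 13. It also read 89.7 CPM for Gm8615, which stood at 84.6 to 98.6 CPM in wild type and at no more than 0.494 CPM in the other RGLS4326-treated mice. Its profile thus went against its group label, lying nearer to wild type, and the label could not be checked further here. Every RGLS4326 value with n = 14 or from index series 2 includes it. Values without it are given wherever they bear on a call from all mice, but not for series 2 alone. Over the other 13 mice the RGLS4326 mean was 25.5 ± 6.88 CPM for Cdkn1a, 145 ± 12.5 CPM for Ccng1 and 1.23 ± 0.80 CPM for Cdkn2a (SD, n = 13).

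Sequences are shown for the drug's target and for places in these genes where letters match its seed or the p53 consensus. The first is the mature mouse miR-17-5p, with its seed, bases 2 to 8, in capitals. The same 7 seed letters open 6 mature miRNAs, miR-17-5p, miR-20a-5p, miR-20b-5p, miR-93-5p, miR-106a-5p and miR-106b-5p, in the RefSeq set for GRCm38.p6.
mmu-miR-17-5p: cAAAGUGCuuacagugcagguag
The letters pairing with that seed, GCACTTT, occur in the longest annotated 3' untranslated region of 1934 of 13832 tested genes (13.98%). Among the 10 genes they occur once in Cdkn1a and once in Ccng1, each time without the A that would extend the match. They do not occur in the longest untranslated region of the other 8. The Cdkn1a site lies in exon 3 of 3 at chr17:29099829-29099835 on the plus strand and the Ccng1 site in exon 6 of 6 at chr11:40749401-40749407 on the minus strand (GRCm38). Capitals mark the seed match within 29 bases of mRNA.
Cdkn1a site: agacctgaataGCACTTTggaaaaatgag
Ccng1 site: atttcatgaatGCACTTTtaaggtattaa
A match of letters is a description and not a measured miRNA site.

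p53 binds a pair of 10-base units, and the windows of 250 bases before to 50 bases after the RefSeq start sites were searched for the consensus unit, a palindromic pattern read alike on both strands. At least 1 unit occurred in 2745 of 32851 windows (8.36%), and a pair with a spacer of 0 to 13 bases occurred in 24 windows (0.0731%). One of those pairs, which contains both single units found there, is in the upstream start window of Cdkn1a at chr17:29090729-29091028 on the plus strand. It spans bases -73 to -42 from the start and is shown in capitals.
Cdkn1a window: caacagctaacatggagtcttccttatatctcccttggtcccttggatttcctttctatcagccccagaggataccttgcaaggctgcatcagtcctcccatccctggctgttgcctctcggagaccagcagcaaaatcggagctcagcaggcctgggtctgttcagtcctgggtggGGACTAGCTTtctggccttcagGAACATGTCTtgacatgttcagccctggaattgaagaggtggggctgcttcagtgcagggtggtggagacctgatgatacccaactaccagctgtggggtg
Single units lay in the windows of Trp53, Mdm2, Bax and Ccng1. For Mdm2, Bax and Ccng1, which moved differently from each other below, the unit is shown in capitals with 25 bases on each side, from the minus strand of chr10:117710910-117710969, chr7:45467065-45467124 and chr11:40755437-40755496.
Mdm2 unit: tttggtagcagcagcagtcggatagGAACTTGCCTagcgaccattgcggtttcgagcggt
Bax unit: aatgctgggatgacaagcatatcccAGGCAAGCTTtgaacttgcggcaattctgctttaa
Ccng1 unit: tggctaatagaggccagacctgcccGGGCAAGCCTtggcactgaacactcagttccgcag
Such matches are letters in a start window. Binding of p53 to them was not measured, and whether they are known p53 elements was not examined. They were not found in the windows of Bbc3, Phlda3, Gdf15, Cdkn2a and Cdkn2b, which says nothing of elements elsewhere in those genes.

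Most of the 10 genes were higher in cystic than in wild-type kidney. Cdkn1a, Bbc3, Phlda3, Gdf15, Cdkn2a and Cdkn2b rose by more than 0.5 on the log2 scale, Trp53 and Bax rose by less, Ccng1 fell and Mdm2 did not pass the test. Contrasts were tested with edgeR's quasi-likelihood test in 1 model of all 31 mice, p-values were adjusted by the Benjamini-Hochberg method over all 15185 genes, and a gene was called at an adjusted p under 0.05 with an absolute log2 fold change over 0.5. In PBS-treated against wild-type kidney 6 of the 10 were called higher, where 24.6% of all tested genes were, and 1 was called lower, where 17.8% were. An adjusted p under 0.05 in either direction was reached by 9 of the 10 and by 74.3% of all genes, so passing the test was common in this contrast. The median log2 fold change was 1.43 over the 10 and 0.01 over all genes. The ranges of the PBS-treated and wild-type mice did not overlap for 6 of the 10, against 42.2% of all genes.

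**Figure D1:**
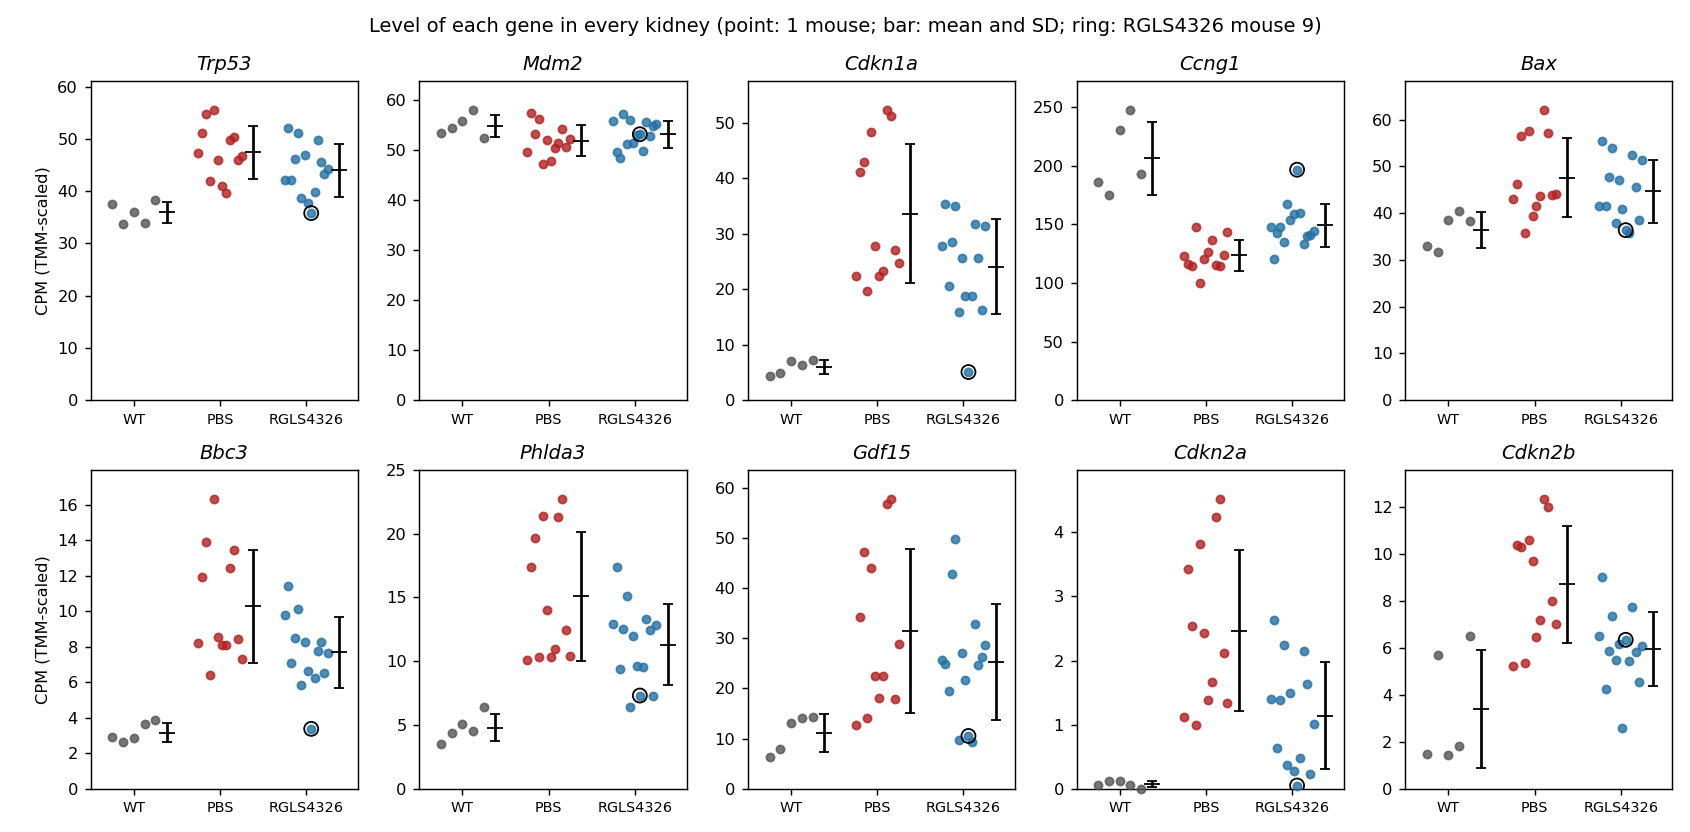
Level of each of the 10 genes in CPM on a linear axis from 0, with 1 point per mouse for wild type (WT, n = 5), PBS-treated (n = 12) and RGLS4326-treated (n = 14) Pcy/CD1 kidneys, a bar for the mean and SD, and a ring on RGLS4326-treated mouse 9. The ringed mouse lies at the wild-type level for Cdkn1a (5.06 CPM), Bbc3 (3.37 CPM) and Ccng1 (197 CPM), and Mdm2 is level across the groups.

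Trp53 itself read 37.6, 33.7, 36.0, 33.9 and 38.3 CPM in wild-type mice 1 to 5. PBS-treated mice ran from 39.5 to 55.5 CPM with a median of 47.0 CPM. RGLS4326-treated mice ran from 35.8 to 52.1 CPM with a median of 43.8 CPM. Every PBS-treated mouse lay above every wild-type mouse, while RGLS4326-treated mice 8 and 9 fell within the wild-type range. The mean was 35.9 ± 2.07 CPM (SD, n = 5) in wild type and 47.4 ± 5.07 CPM (SD, n = 12) with PBS, a log2 fold change of 0.40 (SE 0.08, edgeR adjusted p = 6.00e-05). That is 1.32-fold and below the size threshold.

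Mdm2, the ubiquitin ligase that opposes p53, was the gene that changed least. Wild-type mice read 53.4, 54.3, 55.7, 58.0 and 52.5 CPM. PBS-treated mice read 47.1 to 57.4 CPM (median 51.7) and RGLS4326-treated mice 48.4 to 57.3 CPM (median 53.05). The groups overlapped over most of their range. The log2 fold change of PBS against wild type was -0.08 (95% interval -0.17 to 0.01, edgeR adjusted p = 0.0984). Without PBS-treated mouse 2 the adjusted p became 0.0469, at a log2 fold change of -0.09.

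Cdkn1a, the p21 inhibitor of cyclin-dependent kinases, had the largest rise among the p53 target genes of the 10. Wild-type mice read 4.36, 4.87, 7.10, 6.36 and 7.17 CPM. PBS-treated mice read 19.7 to 52.3 CPM with a median of 27.4 CPM, all far above wild type. RGLS4326-treated mice read 5.06 to 35.3 CPM with a median of 25.7 CPM, and mouse 9 alone fell within the wild-type range. PBS stood 5.63-fold above wild type, a log2 fold change of 2.49 (SE 0.33, edgeR adjusted p = 1.60e-07). Within the PBS group the values parted into 7 mice at 19.7 to 27.7 CPM and 5 mice at 41.1 to 52.3 CPM.

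Ccng1, which encodes cyclin G1 and is among the most widely used p53 target genes, moved the other way. Wild-type mice read 186, 175, 231, 248 and 193 CPM. PBS-treated mice read 100.1 to 148 CPM (median 122), all below wild type. RGLS4326-treated mice read 120.2 to 197 CPM (median 146), where mouse 9 was the highest and the only one within the wild-type range. PBS against wild type gave a log2 fold change of -0.74 (SE 0.09, edgeR adjusted p = 2.60e-08).

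Bax, a pore-forming protein of the outer mitochondrial membrane, and Bbc3, a BH3-only protein that activates it, both rose, by unlike amounts. Bax read 33.0, 31.6, 38.6, 40.4 and 38.4 CPM in wild type and 35.7 to 62.0 CPM (median 43.9) with PBS. The lowest PBS-treated mice overlapped wild type, and the log2 fold change was 0.39 (SE 0.12, edgeR adjusted p = 0.00415), below the size threshold. Bbc3 read 2.89, 2.61, 2.84, 3.63 and 3.85 CPM in wild type and 6.38 to 16.3 CPM (median 8.49) with PBS. Here no PBS-treated mouse overlapped wild type, and the log2 fold change was 1.70 (SE 0.23, edgeR adjusted p = 2.23e-07). RGLS4326-treated mice spanned 35.7 to 55.4 CPM for Bax and 3.37 to 11.4 CPM for Bbc3, where mouse 9 was the only one within the wild-type range.

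Phlda3 encodes a pleckstrin-homology protein that competes with Akt at the membrane, and Gdf15 encodes a secreted stress cytokine. Phlda3 read 3.54, 4.40, 5.09, 4.54 and 6.38 CPM in wild type, 10.1 to 22.7 CPM (median 13.3) with PBS and 6.399 to 17.4 CPM (median 12.2) with RGLS4326. All PBS-treated mice lay well above wild type, while the lowest RGLS4326-treated mouse, mouse 6, nearly touched the highest wild-type mouse. PBS against wild type gave a log2 fold change of 1.66 (SE 0.25, edgeR adjusted p = 7.17e-07). Gdf15 varied more within groups, with 6.25, 7.90, 13.1, 14.05 and 14.2 CPM in wild type, 12.6 to 57.8 CPM (median 25.7) with PBS and 9.25 to 49.8 CPM (median 25.3) with RGLS4326. Both cystic groups overlapped wild type at their lower ends. The log2 fold change of PBS against wild type was 1.501 (SE 0.39, edgeR adjusted p = 0.00103).

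Cdkn2a had the largest fold change of the 10 and by far the fewest counts. Its row pools the transcripts for p16INK4a, the kinase inhibitor, and for p19Arf, which binds Mdm2 and so frees p53, and the counts cannot tell them apart. Wild-type libraries held 1, 2, 2, 1 and 0 counts. PBS-treated libraries held 19 to 115 counts, which is 0.997 to 4.52 CPM with a median of 2.27 CPM. RGLS4326-treated libraries held 1 to 57 counts, 0.0511 to 2.64 CPM with a median of 1.20 CPM, and mouse 9 held the single count. All PBS-treated mice lay above wild type, and all RGLS4326-treated mice but mouse 9 did. From summed counts, 693 in PBS and 6 in wild type, set over the summed scaled library sizes, the ratio was 35.9 with an exact 95% counting interval of 16.4 to 98.2, which covers counting error only. The fitted log2 fold change was 5.00 (SE 0.80, edgeR adjusted p = 2.17e-06), and its size depends on the prior count because wild type was nearly empty.

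Cdkn2b, the neighbouring gene that encodes p15INK4b, behaved differently in wild type. Mice 2 and 5 read 5.70 and 6.50 CPM while mice 1, 3 and 4 read 1.47, 1.42 and 1.82 CPM. PBS-treated mice read 5.21 to 12.3 CPM (median 8.85) and RGLS4326-treated mice 2.58 to 9.03 CPM (median 5.97). Wild-type mice 2 and 5 thus overlapped both cystic groups, while the other wild-type mice lay below both. PBS against wild type gave a log2 fold change of 1.37 (SE 0.30, edgeR adjusted p = 1.67e-04). RGLS4326-treated mouse 9 read 6.34 CPM, above its group's median and within the wild-type range.

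Within index series 1, 2 and 3, each fitted alone, the 9 genes that passed held their direction. Series 3 held 1 wild-type mouse, which the fit takes to vary like the other groups, so its values are given without a call. Cdkn1a gave log2 fold changes of 2.77, 2.19 and 2.45, Bbc3 1.88, 1.68 and 1.45, Phlda3 1.86, 1.57 and 1.41 and Ccng1 -0.53, -0.97 and -0.61 in PBS-treated against wild-type kidney, with an edgeR adjusted p of 0.0169 or less in series 1 and 2. Cdkn2b gave 1.12, 2.40 and 0.62 and passed in series 2 but not in series 1, and Gdf15 gave 1.94, 0.99 and 1.52 and passed in series 1 but not in series 2. Bax gave 0.49, 0.22 and 0.45 (edgeR adjusted p = 0.0346 and 0.325 in series 1 and 2), and Trp53 gave 0.45, 0.39 and 0.35 and missed in series 2 (edgeR adjusted p = 0.0753).

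**Figure D2:**
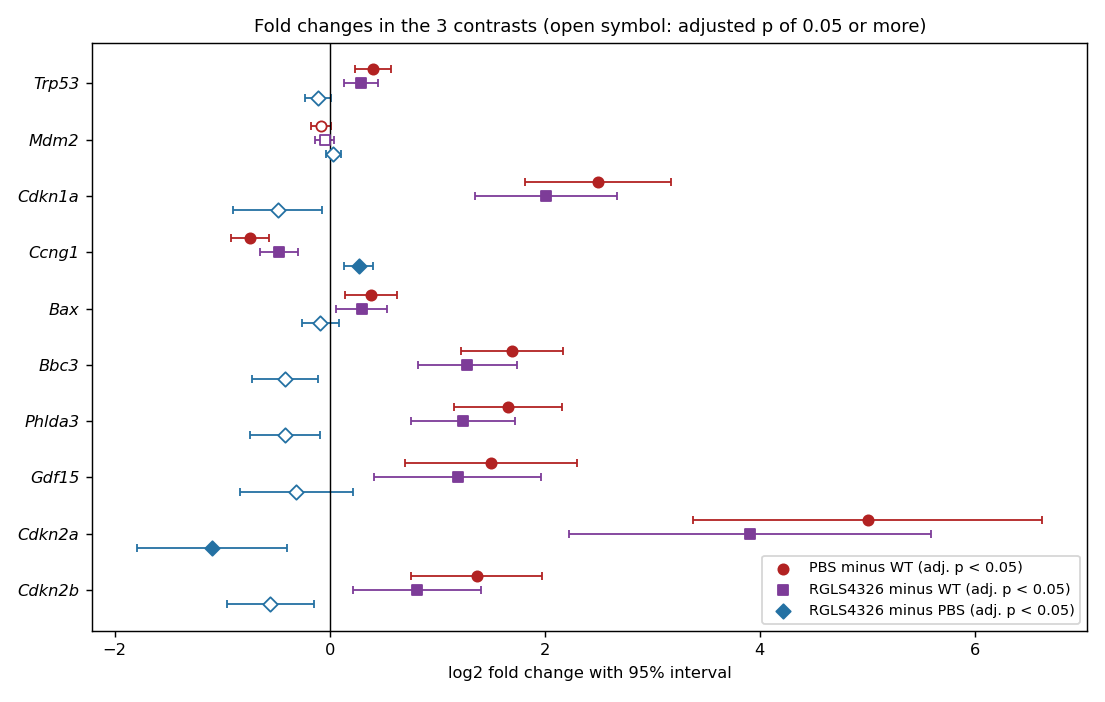
Log2 fold change with its 95% interval for each gene in PBS against wild type (circles), RGLS4326 against wild type (squares) and RGLS4326 against PBS (diamonds), from 1 edgeR model of 31 mice. Filled symbols have an adjusted p under 0.05, and among the diamonds only Ccng1 (0.27) and Cdkn2a (-1.09) are filled.

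Between RGLS4326-treated and PBS-treated kidney, 2 of the 10 genes passed the test. Cdkn2a was lower, at 1.14 ± 0.83 CPM (SD, n = 14) against 2.47 ± 1.25 CPM (SD, n = 12), and Ccng1 was higher, at 149 ± 18.2 CPM (SD, n = 14) against 123 ± 13.5 CPM (SD, n = 12). By edgeR 0 of the 10 were called higher, where 0.935% of all genes were, and 1, Cdkn2a, was called lower, where 1.22% were. An adjusted p under 0.05 with no demand on size was reached by 2 of the 10 and by 15.8% of all genes. The number behind that share, 2402 genes, ran from 618 to 3999 with any 1 mouse left out. At an unadjusted p under 0.05 there were 5 lower and 1 higher, 6 of 10 against 36.8% of all genes. DESeq2 called 0 higher and 2 lower, where it called 1.41% of all genes lower, and gave an adjusted p under 0.05 to 4 lower and 1 higher, where it gave one to 21.2% of all genes. The median log2 fold change was -0.36 over the 10 and 0.00 over all genes, and 8 of the 10 had a negative value. Since this contrast and the one with wild type share the PBS-treated mice, no relation between the contrasts was drawn.

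Cdkn2a gave a log2 fold change of -1.09 (SE 0.34, edgeR adjusted p = 0.0339). The ratio of summed counts, 344 against 693 over the same library sizes, was 0.464 (exact 95% counting interval 0.406 to 0.529). The groups overlapped broadly, with RGLS4326-treated mice 3, 6, 8, 10 and 13 at 0.226 to 0.630 CPM, below every PBS-treated mouse, and the remaining 8 besides mouse 9 at 1.01 to 2.64 CPM, inside the PBS range. Its call was near the threshold. The adjusted p rose to between 0.0532 and 0.0759 when any 1 of PBS-treated mice 2, 3, 5, 9 and 10 or RGLS4326-treated mice 3, 6, 8, 10 and 13 was left out. Without mouse 9 it was 0.0451, at a log2 fold change of -0.99. Within the index series alone the log2 fold change was -0.44, -1.35 and -1.43, with adjusted p of 1, 0.273 and 0.205.

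Ccng1 gave a log2 fold change of 0.27 (SE 0.07, edgeR adjusted p = 0.0141), a 1.21-fold difference below the size threshold. Leaving out any 1 of the 31 mice kept its adjusted p under 0.05, and without mouse 9 it was 0.0203 at a log2 fold change of 0.24. It was higher within each index series, by 0.16, 0.43 and 0.21, with adjusted p of 1, 0.237 and 0.225. Cdkn1a, the other of the 10 with a miR-17 seed match, had a negative value in this contrast.

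The remaining genes did not pass the test against PBS, though leaving out 1 mouse brought the adjusted p under 0.05 in 11 of 31 fits for Cdkn2b (0.0284 to 0.0492), 8 for Bbc3 (0.0232 to 0.0443) and 7 for Phlda3 (0.0282 to 0.0474). For all 3 genes these included PBS-treated mice 1, 4, 7, 8 and 12 and RGLS4326-treated mice 2 and 5, with RGLS4326-treated mouse 1 added for Bbc3 and RGLS4326-treated mouse 11 and wild-type mice 1, 3 and 5 for Cdkn2b. A model of the 2 treated groups only gave Cdkn2b an edgeR adjusted p of 0.0320. Cdkn2b read 5.95 ± 1.57 CPM (SD, n = 14) with RGLS4326 against 8.71 ± 2.49 CPM (SD, n = 12), a log2 fold change of -0.55 (95% interval -0.96 to -0.15, edgeR adjusted p = 0.0533). Cdkn1a read 24.0 ± 8.57 against 33.6 ± 12.5 CPM, a log2 fold change of -0.48 (-0.90 to -0.07, edgeR adjusted p = 0.0870). Bbc3 gave -0.42 (-0.72 to -0.11, edgeR adjusted p = 0.0523) and Phlda3 -0.42 (-0.74 to -0.09, edgeR adjusted p = 0.0634). Within index series 1, 2 and 3 all 4 had negative values, from -0.14 for Bbc3 and Phlda3 in series 1 to -0.73 for Cdkn2b in series 3. For these 4 genes the unadjusted interval lay below 0, and for the next 4 it included 0. Gdf15 gave -0.31 (-0.84 to 0.21), Trp53 -0.11 (-0.23 to 0.01), Bax -0.09 (-0.26 to 0.08) and Mdm2 0.04 (-0.03 to 0.10), with edgeR adjusted p of 0.380, 0.166, 0.449 and 0.428. PBS-treated mice 2, 3, 5, 9 and 10 lay above every RGLS4326-treated mouse for Cdkn1a, Bbc3, Phlda3 and Cdkn2b, while the other 7 lay within the RGLS4326 range for Cdkn1a, Bbc3 and Phlda3.

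Against wild type, Cdkn1a, Bbc3, Phlda3, Gdf15, Cdkn2a and Cdkn2b were called higher in RGLS4326-treated kidney, and Ccng1 was lower by less than the size threshold. These 6 of the 10 compare with 20.3% of all genes called higher, and 0 were called lower by edgeR, where 11.3% were. By an adjusted p under 0.05 alone, 9 of the 10 passed, 8 higher and 1 lower, against 64.9% of all genes, and at an unadjusted p under 0.05 there was likewise 1 lower. DESeq2 also called 0 lower. The log2 fold changes were 2.01 for Cdkn1a (SE 0.32, edgeR adjusted p = 6.71e-06), 3.91 for Cdkn2a (SE 0.83, edgeR adjusted p = 1.78e-04) and -0.47 for Ccng1 (SE 0.09, edgeR adjusted p = 3.09e-05). Ccng1 passed the size threshold without RGLS4326-treated mouse 9, at -0.50. Bbc3 gave 1.28, Phlda3 1.24, Gdf15 1.19 and Cdkn2b 0.82, all with edgeR adjusted p of 0.0157 or less. Trp53 gave 0.29 and Bax 0.30, with edgeR adjusted p of 0.00206 and 0.0248. In index series 1 alone 5 of the 6 stayed called, and Cdkn2b did not (0.83, edgeR adjusted p = 0.195). In series 2 alone only Cdkn2b of the 6 passed, at 1.81, while Cdkn1a, Bbc3, Phlda3, Gdf15 and Cdkn2a did not, with edgeR adjusted p of 0.110, 0.113, 0.0975, 0.335 and 0.139. Over all genes in the series 2 fit, 392 of 15188 passed and 289 were called higher. Series 2 holds mouse 9 among its 5 RGLS4326-treated mice and was not fitted without it. In series 3 alone, with its 1 wild-type mouse and so without a call, Cdkn1a was 1.81, Bbc3, Phlda3, Gdf15 and Cdkn2a had positive values and Cdkn2b was -0.11. Trp53, Bax and Ccng1 passed in series 1 alone. They did not pass in series 2, at 0.28, 0.15 and -0.54 (edgeR adjusted p = 0.246, 0.563 and 0.0620), and gave 0.24, 0.24 and -0.41 in series 3. The Cdkn2b value rested on few wild-type mice, since its adjusted p was 0.0694 without wild-type mouse 1, 0.0699 without mouse 3 and 0.0636 without mouse 4. That of Bax was 0.0660 without wild-type mouse 1 and 0.0770 without mouse 2.

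**Figure D3:**
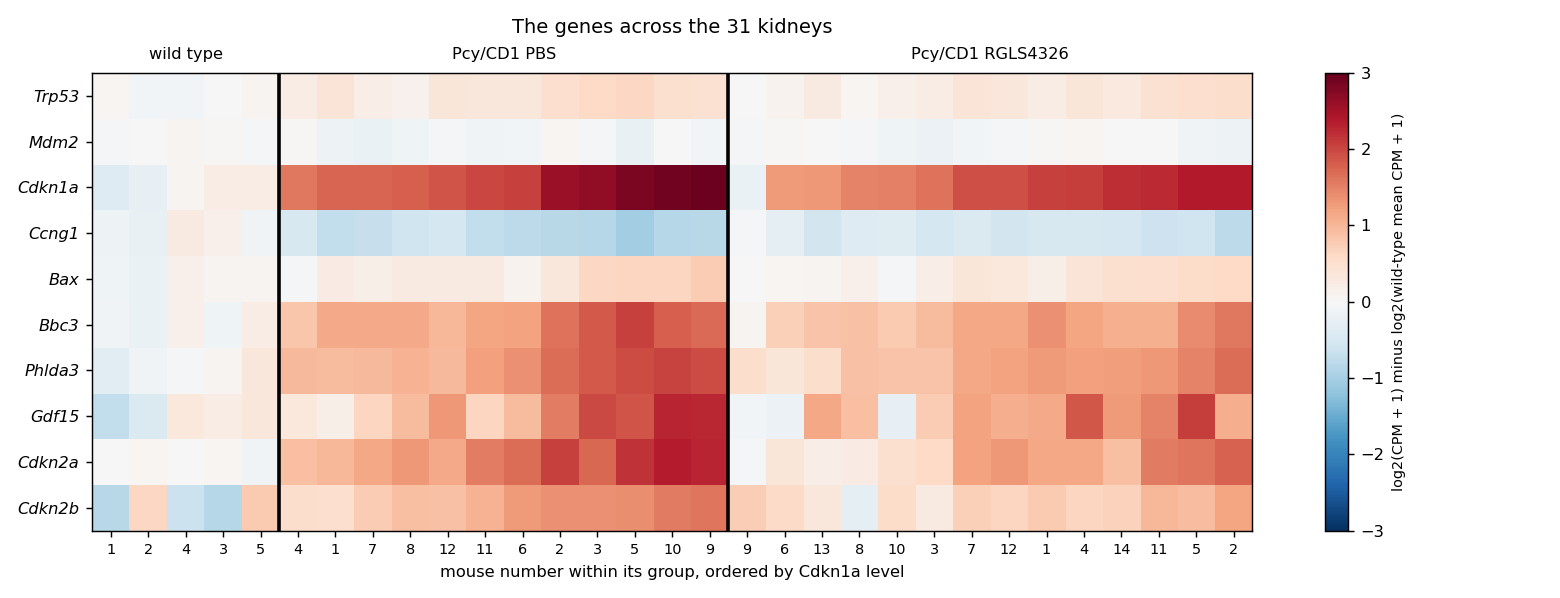
Each gene (row) in each of the 31 mice (column), as log2(CPM + 1) minus the log2(wild-type mean CPM + 1), red above and blue below wild type, with mice ordered by their Cdkn1a level within wild type, PBS-treated and RGLS4326-treated groups. In the PBS block the last 5 mice, numbers 2, 3, 5, 10 and 9, are the most intense for all genes but Mdm2, and RGLS4326-treated mouse 9 is pale.

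The genes varied together from mouse to mouse. PBS-treated mice 2, 3, 5, 9 and 10, the 5 with the most Cdkn1a, were also the 5 highest PBS-treated mice for Trp53, Bax, Bbc3, Phlda3, Gdf15, Cdkn2a and Cdkn2b, and the 5 lowest for Ccng1. They were not set apart for Mdm2. Of all 15185 genes, 8.45% had these 5 mice as the 5 highest PBS-treated mice and 8.30% had them as the 5 lowest. Gdf15 read 34.2 to 57.8 CPM in the 5 and 12.6 to 28.9 CPM in the other 7. Phlda3 read 17.4 to 22.7 CPM in the 5 and 10.1 to 14.04 CPM in the other 7. Cdkn2a was nearly continuous, at 2.54 to 4.52 CPM in the 5 and 0.997 to 2.43 CPM in the other 7.

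Other measures moved with the same 5 mice, whose libraries stood apart as a whole. Their log2 profiles correlated with the wild-type mean at r = 0.927 to 0.942, against 0.956 to 0.973 in the other 7, and their TMM scaling factors, which adjust library size, were 1.117 to 1.165 against 1.004 to 1.103. Lcn2 read 539 to 1205 CPM in them and 205 to 475 CPM in the other 7, and the summed level of 5 proximal tubule markers (Slc34a1, Lrp2, Slc5a2, Cubn and Aqp1) was 4388 to 5205 CPM against 6375 to 8502 CPM. The tubular injury marker Havcr1 did not set them apart, at 39.6 to 61.3 CPM against 25.7 to 63.0 CPM. The sum of 3 collecting duct markers (Aqp2, Hsd11b2 and Fxyd4), 1580 to 2408 against 1099 to 1847 CPM, overlapped, and so did the sum of 6 macrophage markers, 424 to 515 against 304 to 440 CPM. Depth was 19075127 to 23964096 counts in the 5 and 16519885 to 25582754 in the other 7. Index series 1, 2 and 3 held 2, 1 and 2 of them. The part of these measures in the gene levels was not tested, and in whole kidney a smaller number of cells of a type and less RNA per cell cannot be told apart.

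The RGLS4326-treated mice also parted by Cdkn1a. Besides mouse 9, mice 3, 6, 8, 10 and 13 read 15.8 to 20.6 CPM and the other 8 read 25.7 to 35.3 CPM, a narrower gap than the one in the PBS group. Other measures moved with this split too. The 5 mice correlated with the wild-type mean at r = 0.972 to 0.982 and the 8 at 0.942 to 0.967, and their TMM scaling factors were 0.932 to 0.983 and 0.998 to 1.084. Lcn2 read 126 to 211 CPM in the 5 and 342 to 607 CPM in the 8. The summed proximal tubule markers ran from 8239 to 9793 CPM in the 5 and from 5675 to 8239 CPM in the 8, while Havcr1 and the collecting duct, macrophage and proliferation sums overlapped. Index series 1, 2 and 3 held 1, 2 and 2 of the 5. The part of these measures in the gene levels was not tested. On the log2(CPM + 1) scale 7 of 9 genes were related to Cdkn1a across all 14 mice, where 30.9% of all tested genes had an absolute r at least as large as the weakest of the 7. No single r of these 9 across all 14 mice is given, since such a value mixes the difference between the sets with any relation within them. Relations were therefore taken within the larger set of each group, 8 RGLS4326-treated and 7 PBS-treated mice, as 18 relations with exact permutation tests and Benjamini-Hochberg adjustment over the 18. These sets were defined after seeing the Cdkn1a values.

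**Figure D4:**
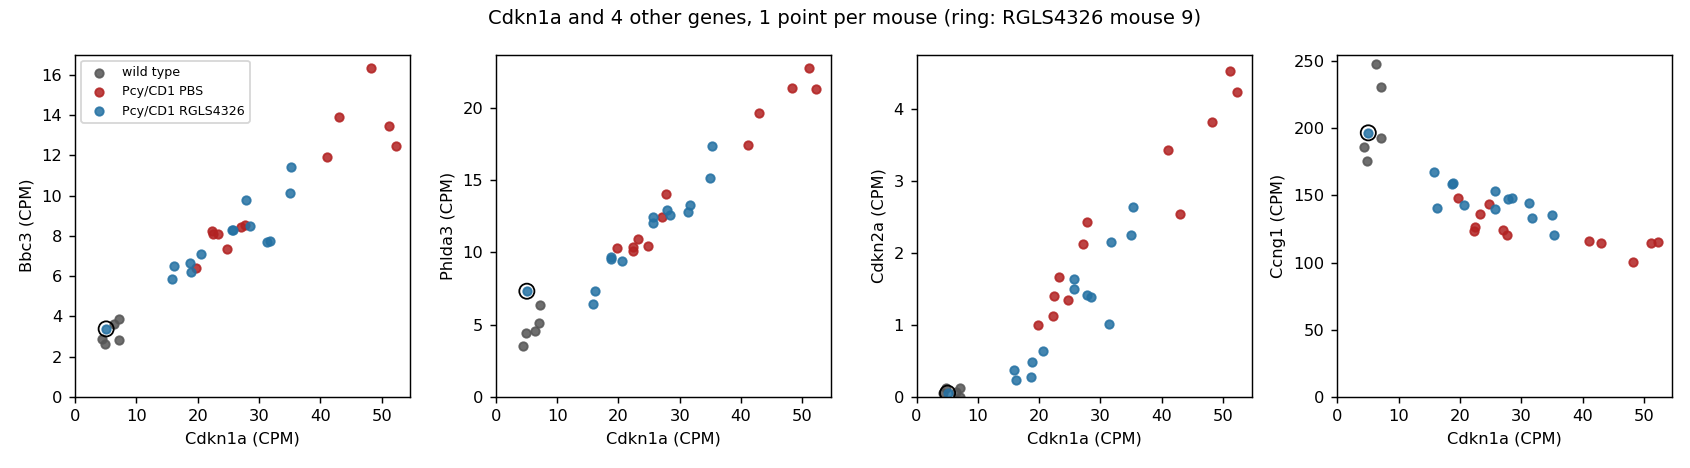
Bbc3, Phlda3, Cdkn2a and Ccng1 in CPM (vertical axes) against Cdkn1a in CPM (horizontal axes), with 1 point per mouse in 3 groups and a ring on RGLS4326-treated mouse 9. The PBS-treated mice form a lower set of 7 and an upper set of 5 along Cdkn1a, the RGLS4326-treated mice besides mouse 9 a lower set of 5 and an upper set of 8, and Phlda3 climbs with Cdkn1a within both larger sets (r = 0.85 and 0.83 on the log2 scale).

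Phlda3 followed Cdkn1a in both sets. In the 8 RGLS4326-treated mice it gave Pearson's r = 0.85 and Spearman's rho = 0.93 (exact permutation p = 5.21e-04 and 0.00223, adjusted p = 0.00938 and 0.0304), and in the 7 PBS-treated mice r = 0.83 and rho = 0.93 (exact permutation p = 0.0127 and 0.00675, adjusted p = 0.0457 and 0.0304). Without the 2 mice farthest from the median of Cdkn1a, r was 0.82 and 0.87. Among the RGLS4326-treated mice Bax also passed, with r = 0.84 and rho = 0.90 (exact permutation p = 0.0114 and 0.00456, adjusted p = 0.0457 and 0.0304), and r was 0.68 without the 2 farthest. In the PBS-treated set Bax did not pass, with r = 0.47 and rho = 0.39 (exact permutation adjusted p = 0.353 and 0.475). In the RGLS4326-treated set 2 of 9 genes passed, where 3.06% of all genes were as closely related as the weaker of them.

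Among the PBS-treated mice Cdkn2a gave r = 0.91 and rho = 0.89 (exact permutation p = 0.00575 and 0.0123, adjusted p = 0.0457 and 0.0443), and Cdkn2b r = 0.90 and rho = 0.93 (exact permutation p = 0.00774 and 0.00675, adjusted p = 0.0457 and 0.0304). Without the 2 farthest mice r was 0.79 and 0.80. In that set 3 of 9 passed, where 5.08% of all genes were as closely related as the weakest of them. In the RGLS4326-treated set Cdkn2a gave r = 0.60 and Cdkn2b r = 0.79 (exact permutation p = 0.118 and 0.0186, adjusted p = 0.213 and 0.0558), and neither passed. Bbc3 gave r = 0.52 with RGLS4326 and 0.71 with PBS and Ccng1 -0.76 and -0.59, with adjusted exact permutation p of 0.261, 0.162, 0.0592 and 0.261. These became -0.44 and 0.02 for Bbc3 and -0.53 and 0.07 for Ccng1 without the 2 farthest mice. Likewise Cdkn2a and Cdkn2b in the RGLS4326-treated set became -0.002 and 0.58. Mdm2 gave r = -0.31 and -0.26 (adjusted exact permutation p = 0.462 and 0.581), which turned to 0.66 and 0.58 without the 2 farthest mice. The index series hold too few mice of either set for values of their own.

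In all, 29 relations over whole groups were computed, with permutation tests of 100000 resamples and Benjamini-Hochberg adjustment over the 29. Havcr1, which encodes the injury marker KIM-1, was related to these genes in RGLS4326-treated mice and not detectably in PBS-treated mice. Across the 14 RGLS4326-treated mice 8 of 10 genes passed by Pearson's r and 7 by Spearman's rho, where 25.2% of all tested genes had an absolute r with Havcr1 at least as large as the weakest of the 8. Cdkn1a gave r = 0.90 and rho = 0.75 (adjusted permutation p = 4.14e-04 and 0.00757), which also spans the sets that Cdkn1a forms. The relation rested in part on the 2 mice farthest from the median of Havcr1, which were mouse 9 and mouse 5. Without them 4 of 10 passed by r, with 6.97% of all genes as closely related as the weakest of those, and 0 of 10 passed by rho (4 at an unadjusted permutation p under 0.05, lowest adjusted p = 0.0604). Cdkn1a then gave r = 0.69 and rho = 0.63 (adjusted permutation p = 0.0413 and 0.0867). Across the 12 PBS-treated mice 0 of 10 passed, with r from -0.10 for Ccng1 to 0.54 for Trp53 (permutation p = 0.762 and 0.068, adjusted p = 0.789 and 0.123), and 0 of 10 passed before adjustment. Whether the relations differed between the groups was not tested. Havcr1 itself ran from 25.7 to 63.0 CPM in PBS-treated mice and from 10.3, in mouse 9, to 110 CPM in RGLS4326-treated mice.

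Across the 26 Pcy/CD1 mice, after subtracting each group's mean, the genes most like Cdkn1a among 13783 compared were Igfbp2 (r = 0.98), Litaf (r = 0.97), Foxj1 (r = 0.97), C730036E19Rik (r = 0.97) and Socs3 (r = 0.97). Of the 10 genes the nearest was Bbc3 (r = 0.93), at rank 144, and Cdkn2a, Phlda3, Bax, Trp53 and Gdf15 stood at ranks 456, 548, 907, 992 and 1204, so many genes outside this set tracked Cdkn1a more closely. Those most like Cdkn2a were Zfp651 (r = 0.95), Pamr1 (r = 0.95), Cd24a (r = 0.95), Map3k12 (r = 0.94) and Megf6 (r = 0.94), and Phlda3 followed at rank 12 (r = 0.93). These mice include mouse 9 and the sets that Cdkn1a parts in both treated groups, which weigh on every r here, and the values are a description with no test.

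The wider set of p53 target genes did not move one way. Of 27 other p53 targets, all tested, 12 were higher and 10 lower in PBS-treated than in wild-type kidney at an adjusted p under 0.05, where 37.7% of all genes were higher and 36.6% lower, and their median log2 fold change was -0.01, close to the 0.01 of all genes. The 3 with the smallest p were Rrm2b, a subunit of the p53-inducible ribonucleotide reductase, Ei24 and Ak1, an adenylate kinase. Rrm2b read 37.4 ± 3.04 CPM (SD, n = 5) in wild type and 17.2 ± 3.13 CPM (SD, n = 12) with PBS, a log2 fold change of -1.13 (SE 0.12, edgeR adjusted p = 1.11e-08). Ei24 gave -0.42 and Ak1 0.73. In RGLS4326-treated against PBS-treated kidney 4 of the 27 (14.8%) passed, 3 higher and 1 lower, near the share of all genes, of which 9.15% were higher and 6.66% lower. Ddit4l, a negative regulator of mTOR signalling, had a log2 fold change of -0.53 (SE 0.14, edgeR adjusted p = 0.0198). Rrm2b gave 0.29, Ei24 0.13 and Perp, a desmosomal protein, 0.13, with edgeR adjusted p of 0.0392, 0.0201 and 0.0259. With 1 mouse left out Rrm2b missed in 13 of 31 fits, Perp in 1 and Ei24 and Ddit4l in 0.

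**Figure D5:**
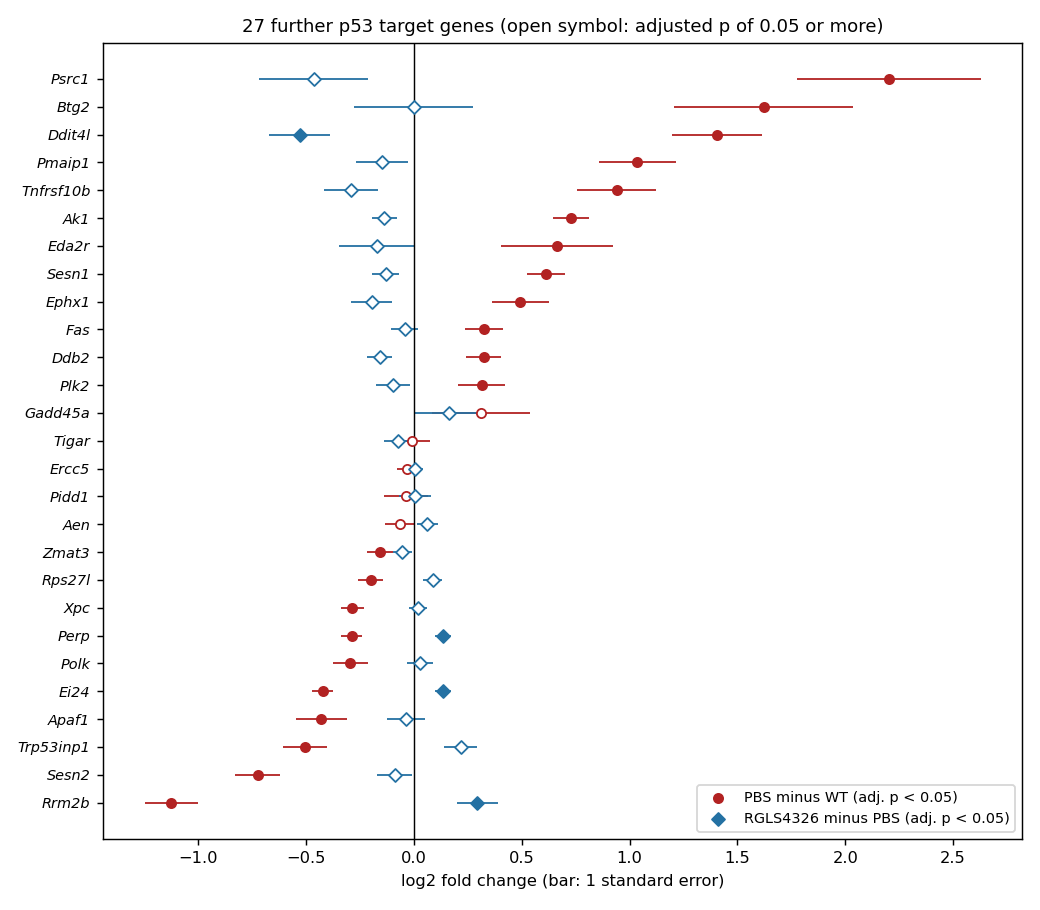
Log2 fold change with 1 SE for 27 further p53 target genes, ordered by PBS against wild type (circles), beside RGLS4326 against PBS (diamonds), from the same edgeR model. Circles spread from -1.13 (Rrm2b) to 2.20 (Psrc1), filled on both sides of 0, and the 4 filled diamonds are Ddit4l, Perp, Ei24 and Rrm2b.

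Of 16 regulators and relatives of p53, 9 were lower and 5 higher in PBS-treated than in wild-type kidney at an adjusted p under 0.05, which is 87.5% against 74.3% of all genes, with a median log2 fold change of -0.27. By direction, 37.7% of all genes were higher and 36.6% lower in this contrast, for this list and those below. Cop1, a ubiquitin ligase for p53, gave -0.40, Atr, a DNA damage kinase, -0.51, and Usp7, which removes ubiquitin from p53 and Mdm2, -0.30, with edgeR adjusted p of 5.27e-07, 9.25e-07 and 1.05e-06. With RGLS4326, 2 of the 16 (12.5%) were higher than with PBS, against 9.15% of all genes. Sirt1, a deacetylase of p53, gave 0.26 (SE 0.08, edgeR adjusted p = 0.0294) and Atr 0.17 (SE 0.06, edgeR adjusted p = 0.0471), while Cop1 at 0.12 had an adjusted p of 0.0501. With 1 mouse left out Atr missed in 19 of 31 fits and Sirt1 in 7, while Cop1 passed in 12.

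In the cyclin-dependent kinase and retinoblastoma axis, 8 of 20 genes were higher and 4 lower in PBS-treated kidney, which is 60% passing against 74.3% of all genes. Cdk2, which Cdkn1a inhibits, gave a log2 fold change of 0.62 and Rbl2, a relative of the retinoblastoma protein, -0.62. Bmi1, a Polycomb protein known to repress Cdkn2a, read 54.0 ± 3.49 CPM (SD, n = 5) in wild type and 36.1 ± 3.97 CPM (SD, n = 12) with PBS, a log2 fold change of -0.58 (SE 0.08, edgeR adjusted p = 2.40e-07). Between the treated groups 5 of the 20 (25%) passed, against 15.8% of all genes, 2 higher and 3 lower with RGLS4326, all below the size threshold. E2f2, an activator of replication genes, gave -0.35, Cdk2 -0.21 and Rb1 0.25, with edgeR adjusted p of 0.0115, 0.0205 and 0.0213. Bmi1 gave 0.19 (SE 0.06, edgeR adjusted p = 0.0385). It missed in 10 of 31 fits with 1 mouse left out, Cdk2 in 1 and E2f2 and Rb1 in 0. The fifth was Cdk4, named here because it completes the count, at -0.21.

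Genes that senescent cells secrete or lose had the largest median change against wild type of the 5 lists. Of 23 genes 21 were tested, and Il1a and Hmga2 had too few counts. In PBS-treated kidney 13 were higher and 5 lower, 85.7% passing against 74.3% of all genes, with a median log2 fold change of 1.32. Timp1, an inhibitor of metalloproteinases, rose from 0.526 ± 0.471 CPM (SD, n = 5) to 25.5 ± 9.60 CPM (SD, n = 12), and Ccl2, a monocyte chemokine, from 0.656 ± 0.439 to 10.3 ± 3.41 CPM, with edgeR adjusted p of 3.64e-08 and 3.49e-08. Glb1, which encodes the lysosomal enzyme behind senescence-associated beta-galactosidase staining, fell from 232 ± 32.6 to 92.4 ± 11.5 CPM (log2 fold change -1.33, SE 0.13, edgeR adjusted p = 3.55e-09). Lmnb1, the lamin B1 gene that senescent cells are known to lose, was higher in PBS-treated kidney by 1.01 (SE 0.14, edgeR adjusted p = 2.80e-07). Lmnb1 was also the 1 gene of this list (4.76%, against 15.8% of all genes) that passed between the treated groups, with -0.37 for RGLS4326 against PBS (SE 0.10, edgeR adjusted p = 0.0176), while Glb1 at 0.29 and Vegfa at 0.17 did not pass. With 1 mouse left out Lmnb1 passed in all 31 fits, Glb1 in 11 and Vegfa in 2.

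Among 10 partners of Bax and Bbc3 in the BCL2 family, 9 were tested, Hrk having too few counts. In PBS-treated kidney 6 were higher and 2 lower, 88.9% passing against 74.3% of all genes. In that contrast Mcl1, a survival factor, gave 0.65, Bak1, which forms pores as Bax does, 1.002, and Bik -2.33, with edgeR adjusted p of 1.51e-07, 1.24e-06 and 9.62e-07. Between the treated groups 1 of the 9 (11.1%) passed, against 15.8% of all genes. Bmf, a BH3-only protein like Bbc3, read 31.1 ± 9.37 CPM (SD, n = 12) in PBS-treated and 20.8 ± 6.28 CPM (SD, n = 14) in RGLS4326-treated kidney, a log2 fold change of -0.58 (SE 0.16, edgeR adjusted p = 0.0220). Bak1 at -0.29 and Bcl2l1 at -0.13 did not pass against PBS. With 1 mouse left out Bmf missed in 1 of 31 fits, while Bak1 passed in 11 and Bcl2l1 in 7.

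Markers of the kidney's cell types differed between the groups as well. All 5 proximal tubule markers were lower in PBS-treated than in wild-type kidney, and their sum spanned 13187 to 14677 CPM in wild type, 4388 to 8502 CPM with PBS and 5675 to 12509 CPM with RGLS4326. All 3 collecting duct markers, all 6 macrophage markers, all 5 lymphocyte markers, all 5 proliferation markers and 4 of 5 fibroblast markers were higher, in a contrast where 74.3% of all genes passed. Proliferation markers (Mki67, Top2a, Ccnb1, Cdk1 and Aurkb) summed to 5.84 to 16.4 CPM in wild type, 28.5 to 72.3 CPM with PBS and 11.2 to 46.8 CPM with RGLS4326. Macrophage markers (Adgre1, Cd68, Csf1r, C1qa, C1qb and Itgam) summed to 151 to 161, 304 to 515 and 145 to 607 CPM, and lymphocyte markers (Ptprc, Cd3e, Cd8a, Cd79a and Ms4a1) to 11.5 to 20.2, 40.1 to 61.2 and 15.6 to 67.3 CPM. Fibroblast markers (Col1a1, Pdgfrb, Pdgfra, Dcn and Acta2) summed to 119 to 144, 239 to 506 and 174 to 531 CPM. In each of these sums the RGLS4326 value nearest wild type was that of mouse 9. In the other RGLS4326-treated mice the proximal tubule sum was at most 9793 CPM. Their proliferation, macrophage, lymphocyte and fibroblast sums were at least 25.1, 225, 43.8 and 239 CPM. Endothelial markers gave 1 of 3 lower, podocyte markers 0 of 2 and thick ascending limb markers 1 of 2 lower. Both injury markers, Havcr1 and Lcn2, were higher. In RGLS4326-treated against PBS-treated kidney 2 of 3 collecting duct markers and 1 of 5 proliferation markers were lower and 1 of 5 proximal tubule markers was higher by edgeR, in a contrast where 15.8% of all genes passed. No marker stood at 0 in any library. The part of these shifts in the p53 and senescence genes was not tested.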

How the data were processed

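Kidney poly(A) RNA of 31 mice was measured with stranded paired-end RNA-seq. The authors trimmed reads with Trim Galore, aligned them to GRCm38 with STAR, and took uniquely mapped reads into counts per gene with HTSeq 0.6.1. What was deposited for each mouse are these counts for 23509 genes, without normalization, and whether strand was used in counting is not given in the sources used here. Reads outside any gene (10.4% to 12.5%) and ambiguous reads (0.381% to 0.503%) stayed out of library sizes.

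Groups came from the labels. edgeR 4.0.16 in R 4.3.3 kept 15185 genes (filterByExpr), scaled libraries by TMM and tested contrasts of the 3 group means by quasi-likelihood F. The SE was taken as the size of the log2 fold change over the square root of F. DESeq2 1.42.0 was an alternative. Counting error limits genes with few counts, chiefly Cdkn2a. A simulation of RGLS4326 against PBS tested 15101 genes, counting those at an adjusted p under 0.05. It recovered 100 of 100 genes changed by 2 and 99 of 100 changed by 1 on the log2 scale, with 9 false passes. The changed genes all had higher mean counts than Cdkn2a, and counts were drawn independently for each mouse. The simulation thus does not cover Cdkn2a, changes below 1 or genes that vary together between mice.

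The members and lists were chosen with earlier results of these data known. Of the other lists, the text names the 3 genes with the smallest p in PBS against wild type and in RGLS4326 against PBS, and for Cdkn1a and Cdkn2a the 5 genes most like each. Cop1, Tigar, Pidd1 and Adgre1 were found under older symbols. Relations used log2(CPM + 1). Promoter and miRNA sequences are from RefSeq tables of GRCm38.p6, which held windows for all 10 genes, and 3' untranslated regions from GENCODE vM21 on GRCm38. Alternatives covered the filter on counts, library scaling, DESeq2, models of 2 groups, the index series, the replicate numbers as a block, single mice left out, the size threshold and, for relations, the pseudocount, centring and the 2 farthest mice. The ratio of summed Cdkn2a counts, the sets of mice used for relations with Cdkn1a and the shares of all genes beside the relations were chosen after seeing the data. Python 3.11.15 with numpy 2.4.6, scipy 1.17.1 and pandas 2.3.3 served for the rest.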

Additional observations from a re-analysis of the deposited data

Results flagged for a closer look

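Wild-type values of the 10 genes and of the genes named from the other lists by smallest p were examined for outliers. Among them 1 stood far from the others by Dixon's test at the 95% level. Glb1 read 174 CPM in wild-type mouse 1, while the other 4 wild-type mice read 240.3 to 252 CPM. Chance flags about 1 in 20 groups, and 34 genes were examined. Without wild-type mouse 1 the fall of Glb1 in PBS-treated kidney was -1.41 on the log2 scale, against -1.33 with all mice.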

How the results depend on the processing

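With no filter, RLE scaling, DESeq2, an index series covariate or 2 groups only, no log2 fold change of the 10 genes changed sign. In index series 1 alone, RGLS4326 against PBS turned to -0.036 for Mdm2, 0.035 for Bax, 0.056 for Gdf15, 0.15 for Ccl2, 0.086 for Timp1, 0.017 for Mcl1 and -0.064 for Bik. PBS against wild type turned to 0.00495 for Mdm2 there and to 0.00695 in series 3. In series 3 alone RGLS4326 against wild type was 0.050 for Mdm2 and -0.11 for Cdkn2b, and RGLS4326 against PBS was -0.34 for Bik. The cause was not tested.

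Of the 10 genes, those called lower with RGLS4326 against PBS numbered 2 with DESeq2, 2 with 2 groups only, 0 in each index series alone and 0 to 2 with single mice left out. Over all genes 0 were called lower in each index series alone, and 135 of 14687 were with 2 groups only. With no threshold on size 1 of the 10 was called higher in RGLS4326 against PBS, and 1 lower against wild type. In RGLS4326 against wild type 1 gene, Cdkn2b, was called higher in series 2 alone, which includes RGLS4326-treated mouse 9. In series 3 alone, with 1 wild-type mouse and so without a call, Cdkn1a was 1.81. In RGLS4326 against wild type 0 to 1 were called lower with single mice left out. That 1 was Ccng1, without RGLS4326-treated mouse 9 or wild-type mouse 1 or 2. Leaving out 1 mouse gave RGLS4326 against PBS values of -0.096 to 0.059 for Ccl2 and -0.31 to 0.29 for Bik, the negative Bik value without mouse 9. With DESeq2, RGLS4326 against PBS gave an adjusted p of 0.0382 for Bbc3, 0.0498 for Phlda3 and 0.0396 for Cdkn2b. Within the upper set of RGLS4326-treated mice 2 of 9 relations with Cdkn1a passed, instead of 7. Without the 2 farthest mice r was 0.14 for Mdm2 with Cdkn1a across RGLS4326-treated mice of both sets and 0.15 for Ccng1 with Havcr1 across PBS-treated mice. Of 10 relations with Havcr1 in RGLS4326-treated mice 4 then passed by r and 0 by rho.

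Deviations from the group means in same-numbered mice of the treated groups were not correlated throughout (r -0.47 to 0.51 over 12 pairs, mean -0.08), so the replicate numbers pair no mice. With a replicate block 0 of the 10 were called lower against PBS (Cdkn2a -1.05, edgeR adjusted p = 0.0997), 1 was called lower against wild type, and Bik was -0.078. Over all genes the block called 25 higher and 18 lower in RGLS4326 against PBS, instead of 142 and 185.

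Other counts over all genes moved by more than 1.5 times as well. RGLS4326 against PBS gave 75 higher with 2 groups only, 0 in each index series and 42 to 238 with 1 mouse left out, and lower calls then ran from 36 to 365. The counts fell without PBS-treated mouse 2, 3, 5, 9 or 10 or RGLS4326-treated mouse 3 (lower calls only), 6, 8, 9, 10 or 13, and rose without PBS-treated mouse 4 or, for lower calls, RGLS4326-treated mouse 2. RGLS4326 against wild type gave 289 higher and 83 lower in series 2, which includes RGLS4326-treated mouse 9. By adjusted p alone, RGLS4326 against PBS gave 1480 genes with 2 groups only and 303 with the replicate block, instead of 2402. It gave 0 in each index series and 618 to 3999 with 1 mouse left out. PBS against wild type gave 6918 genes in series 2, and RGLS4326 against wild type gave 392 there, instead of 9861. Series 3, with its 1 wild-type mouse, is given no counts against wild type. Depth limits Cdkn2a, whose wild-type counts were 0 to 2.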
